A study of Mus musculus with 2 samples.

Results

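AIMP3 is encoded by *Eef1e1* (eukaryotic translation elongation factor 1 epsilon 1), the gene deleted in these mouse embryonic stem cells (mESCs). It was examined together with the subunits of elongation factor 1 (*Eef1a1*, *Eef1a2*, *Eef1b2*, *Eef1d* and *Eef1g*) and the other two scaffold proteins of the multisynthetase complex (*Aimp1* and *Aimp2*). Members were found by matching the transcript accession that each array probe carries to these 8 gene symbols. This gave 10 probes out of 55681 on the array, and 9 of the 10 were bright enough to test, out of 33022 tested probes. The 33022 stood for 24031 genes or accessions without a matched symbol, of which 14981 had a RefSeq symbol. *Eef1a2* had 1 probe, which was not tested.

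Elongation factor 1 delivers aminoacyl-tRNA to the ribosome. Its alpha subunit (eEF1A) binds aminoacyl-tRNA and GTP, and the beta, delta and gamma subunits form the eEF1B complex that reloads eEF1A with GTP. AIMP1, AIMP2 and AIMP3 are non-catalytic scaffolds that hold a group of aminoacyl-tRNA synthetases in one large complex. AIMP3 owes its gene symbol to its similarity to elongation factor 1 subunits. It binds methionyl-tRNA synthetase and has a known role in signalling to p53 after DNA damage.

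All cells carried loxP-flanked *AIMP3* alleles and CreERT2, a Cre recombinase that 4-hydroxytamoxifen switches on (*AIMP3* f/f; Cre-ERT2), and were labelled as mouse embryonic stem cells. AIMP3-depleted cells received 2 μM tamoxifen for 4 days in LIF-containing medium (2 replicates), and control cells received ethanol for the same time. Every AIMP3-depleted replicate had a two-colour Agilent array of its own, with its RNA in Cy5 against 1 pool of control RNA in Cy3, so the controls count as 1 sample and their own spread was not measured. The control cells carried the same floxed alleles and recombinase but did not receive the drug, so *AIMP3* deletion, the drug and Cre activity cannot be told apart. No array had the dyes swapped, so a gene-specific difference between the dyes cannot be told apart from depletion. Nothing in the sources used here says that the replicates came from separate clones, and p-values measure only the spread between the 2 arrays.

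Both arrays lay on 1 slide and gave 59305 spots each besides controls, with a median signal 2.68 to 3.31 times the local background and no saturated spot. The log2 of Cy5 over Cy3, positive where RNA was higher in AIMP3-depleted cells, had a median SD of 0.0509 between the arrays. This direction follows the dyes in the labels, while the methods describe the ratio the other way round, as control over test. A ratio as small as 0.135 passed an adjusted p of 0.05, and 50.5% of all tested probes passed, so each count of members is given beside the share of all tested probes. Ratios were the values after background correction and intensity-dependent normalization, and their mean was tested against 0 with limma across all tested probes.

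*Eef1e1* RNA was lower in AIMP3-depleted mESCs, and it was the only member changed by more than 1.5-fold. Its probe A_51_P164420 (transcript NM_025380) had a normalized intensity of 4591 and 4492 in the control channel of the arrays of replicates 1 and 2, and 2453 and 2415 in the AIMP3-depleted channel. Both AIMP3-depleted values lay below both control values, but the control values are 1 pool read on 2 arrays. The share of all tested probes whose channels did not overlap was not counted, so a lack of overlap, here and below, only describes the values. The log2 ratio was -0.90 on both arrays, with a mean of -0.90 ± 0.0067 (SD, n = 2), so 53.6% of the control signal remained, with a 95% interval of 49.6 to 57.9%. The adjusted p was 7.65e-05 by limma. Only 32 of the 33022 tested probes had a lower mean ratio. The spot was far from the background before normalization, with median signals of 3535 and 3786 in Cy3 and 3163.5 and 2850 in Cy5 against local backgrounds between 53 and 67.

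The residual *Eef1e1* signal cannot be read as the share of cells that kept the gene. The study draws the targeted locus with its exons and loxP sites, but that drawing was not used here, and the position of the probe on the transcript is not given in the sources used here. Whether the probe lies in the deleted part is therefore not known, and a probe outside the deleted part would check nothing. In bulk RNA, fewer cells with a transcript and less of it per cell cannot be told apart. The labels describe culture on feeder layers of mouse embryonic fibroblasts (MEFs), whose genotype is not given, and the methods name MEF-conditioned medium for drug treatment.

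**Figure D1:**
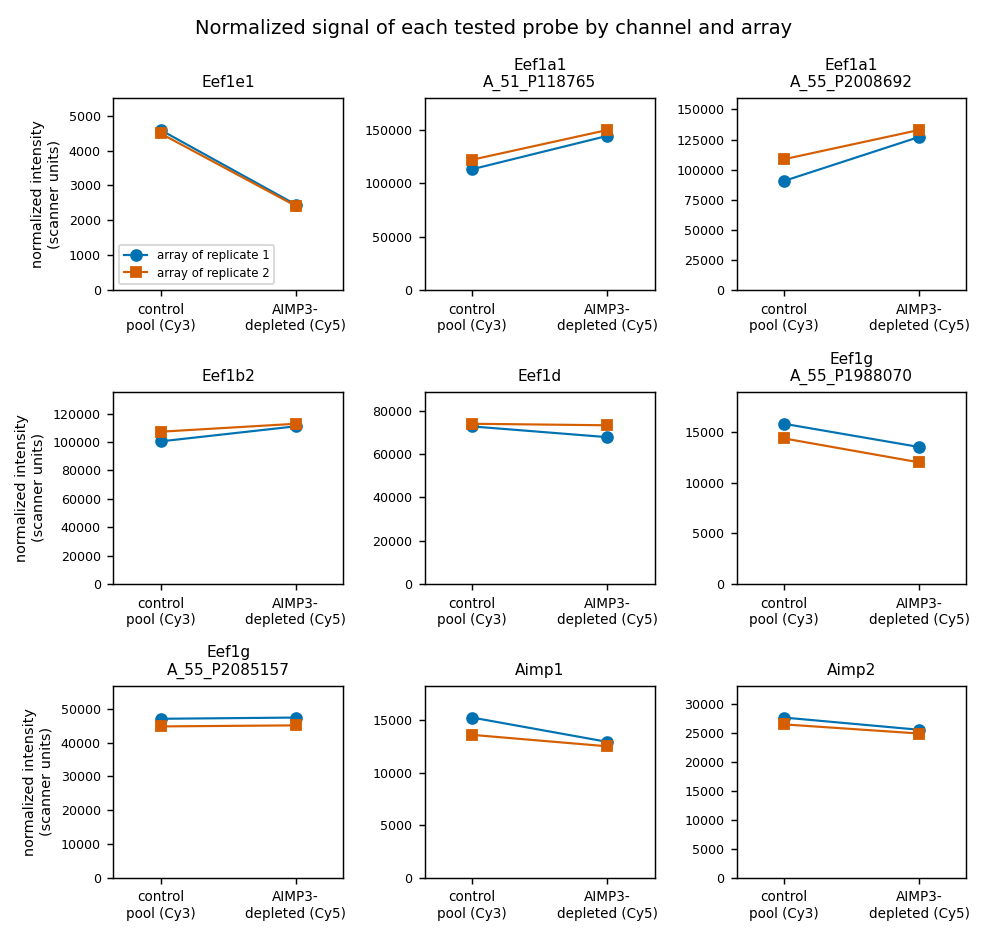
Normalized intensity of each tested probe in the control pool (Cy3) and the AIMP3-depleted RNA (Cy5), with 1 line per array and a linear axis from 0 in every panel. The *Eef1e1* lines fall from 4591 and 4492 to 2453 and 2415, while the lines of the other probes are close to level, with a rise at both *Eef1a1* probes.

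The partners moved far less than *Eef1e1*. The 8 tested probes of the other 6 genes had mean log2 ratios from -0.24 to 0.39, of which 4 were negative and 4 positive, and none passed 1.5-fold. With median centring in place of loess, 3 of them did, both of *Eef1a1* and that of *Eef1b2*, all higher. Their 95% intervals reached from -0.356 to 0.537 at the extremes and stayed inside the 1.5-fold limit of 0.58 on either side. On each array the *Eef1e1* ratio was lower than that of every partner probe. Averaged over the arrays, the gap was smallest against the *Eef1g* probe A_55_P1988070 (-0.68 and -0.64 on the arrays of replicates 1 and 2) and largest against the *Eef1a1* probe A_55_P2008692 (-1.394 and -1.186). On single arrays *Aimp1* was nearest for replicate 1 (-0.67), and the other *Eef1a1* probe was farthest for replicate 2 (-1.191).

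Of the 9 tested probes, 1 was lower by over 1.5-fold with p under 0.05, compared with 0.745% of all tested probes, and 0 were higher, compared with 4.97%. At an adjusted p under 0.05 and any fold, 3 member probes were lower (1 each of *Eef1e1*, *Eef1g* and *Aimp1*), where 22.8% of all tested probes were. Another 2 were higher, both of *Eef1a1*, where 27.7% of all tested probes were. Among the partners, 2 of 8 probes were lower and 2 of 8 higher, shares near those of all tested probes.

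**Figure D2:**
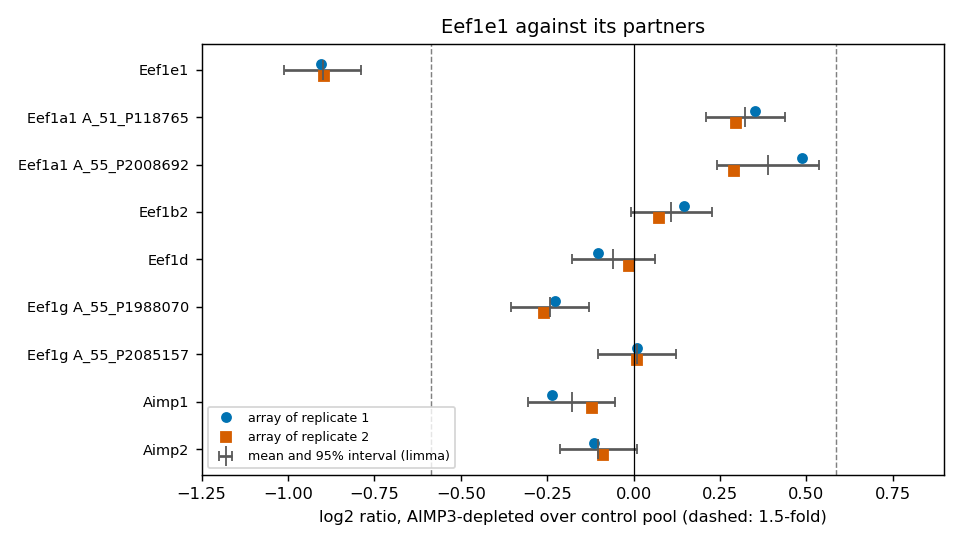
Log2 ratio (AIMP3-depleted over the control pool) of each tested probe, with the 2 arrays as points and the limma mean with its 95% interval as a bar; dashed lines mark 1.5-fold. The *Eef1e1* interval, -1.012 to -0.788, lies wholly beyond the lower dashed line and the intervals of the other 8 probes lie between the lines.

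Among the elongation factor subunits, *Eef1a1*, which encodes the eEF1A of dividing cells and is among the most abundant transcripts of many cell types, was the one that rose. At probe A_51_P118765 the control channel read 113100 and 122000 and the AIMP3-depleted channel 144300 and 149800, with no overlap, giving a log2 ratio of 0.32 ± 0.0387 (SD, n = 2), or 1.25-fold (adjusted p = 0.00224, limma). At probe A_55_P2008692 the control channel read 90650 and 108700 and the AIMP3-depleted channel 127200 and 133000, again with no overlap, giving 0.39 ± 0.14, or 1.31-fold (adjusted p = 0.00285). *Eef1a1* has many processed pseudogenes and a close paralog in *Eef1a2*, and cross-hybridization was not tested.

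Both *Eef1a1* probes were among the 500 brightest probes of the array, and the median log2 ratio of those 500 was 0.28 after normalization, while the median of all tested probes was 0.01. Of the 500, 212 had a higher ratio than probe A_51_P118765 and 169 had a higher ratio than probe A_55_P2008692. The control pool was the same RNA on both arrays, yet after centring its *Eef1a1* signal differed between arrays by 0.18 and 0.34 (log2) at the 2 probes. The AIMP3-depleted signal differed in the same direction, by 0.14 and 0.15, and what both channels share cancels in the ratio. With the scanner software's processed signals, in which the 500 brightest probes had a median of 0.07, the ratios were 0.16 and 0.23 and neither passed (adjusted p = 0.0671 and 0.094). With loess of a shorter span of 0.1, chosen after seeing the data, *Eef1a1* still passed at both probes, at 0.16 and 0.25, with a median of 0.10 for the brightest probes. With the authors' deposited table, probe A_51_P118765 was just inside the threshold (0.20, adjusted p = 0.0492) and probe A_55_P2008692 lost its call (0.27, adjusted p = 0.0738). With the methods' t-test neither probe passed (unadjusted p = 0.0537 and 0.158, adjusted p = 0.222 and 0.301). After adjustment that test called 0 probes of the whole array, so its adjusted values say nothing particular to *Eef1a1*. With median centring in place of loess the ratios were larger, at 0.83 and 0.88, both past 1.5-fold, and the median of the 500 brightest probes was 0.80. Both had an adjusted p under 0.05 there by limma. In that setting, however, the p-values of the member probes followed the size of the ratio and not each probe's own spread between arrays.

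*Eef1a2* encodes the eEF1A isoform of neurons and muscle, which takes over from *Eef1a1* there after birth. Its probe A_51_P485862 was not well above background in any of the 4 channels. The median signals were 71 and 78 in Cy3 and 76.5 and 69 in Cy5, against local backgrounds of 42 and 43 and of 57 and 59. No fold is given for *Eef1a2*, and a switch between the isoforms could not be examined with this probe.

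The eEF1B subunits did not pass 1.5-fold in either direction with the loess values. *Eef1b2* encodes the beta subunit, a nucleotide exchange factor for eEF1A. Its control signals of 100400 and 107200 and AIMP3-depleted signals of 111000 and 112800 did not overlap, but the log2 ratio of 0.11 ± 0.0507 did not pass (adjusted p = 0.104, 95% interval -0.008 to 0.227). *Eef1b2* was also among the 500 brightest probes, 396 of which had a higher ratio. Its value ranged with the normalization from -0.039 with the processed signals to 0.60 with median centring (adjusted p under 0.05), which is past 1.5-fold. *Eef1d* encodes the delta subunit, the second exchange factor. It read 72740 and 73970 in the control channel and 67780 and 73270 in the AIMP3-depleted channel, which overlapped, with a ratio of -0.06 ± 0.0622 (adjusted p = 0.365, interval -0.178 to 0.062).

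The 2 probes of *Eef1g*, which encodes the gamma subunit that anchors the exchange complex, disagreed. Probe A_55_P1988070 read 15850 and 14400 in the control channel and 13550 and 12030 in the AIMP3-depleted channel, with no overlap and a log2 ratio of -0.24 ± 0.0236 (0.845-fold, adjusted p = 0.00641). Probe A_55_P2085157, the brighter of the pair, read 47070 and 44810 against 47430 and 45120. Its ratio was 0.01 ± 0.000655, with an interval of -0.102 to 0.122 and an adjusted p of 0.867. The fall at the first probe therefore stands for 1 of 2 probes, and no direction is given for the gene. That call was lost with the authors' deposited value table (adjusted p = 0.0544) and with median centring, where the ratio was 0.041 (adjusted p = 0.646). The methods' t-test gave an unadjusted p of 0.0436 (adjusted p = 0.217, where no probe of the array passed).

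**Figure D3:**
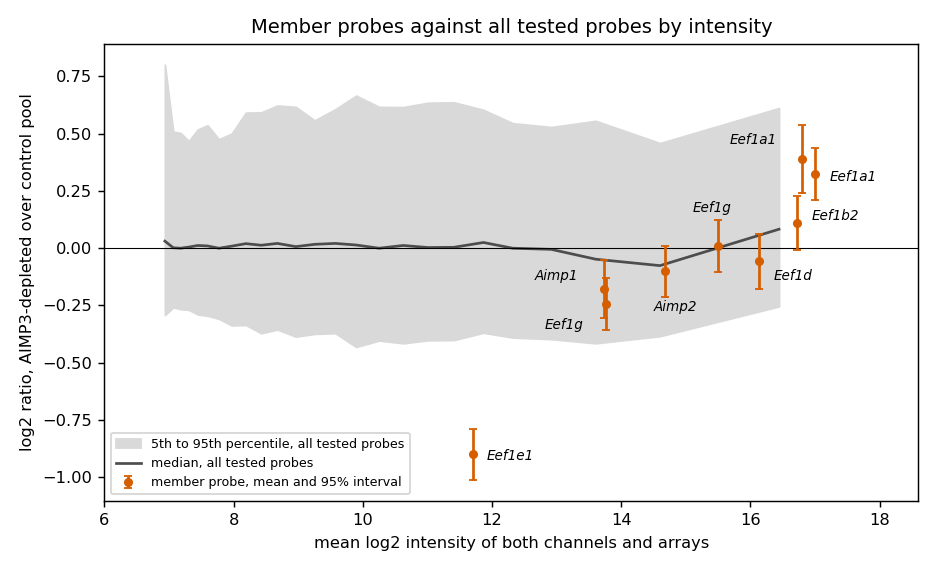
Mean log2 ratio of each member probe, with its 95% interval, against its mean log2 intensity; the grey band spans the 5th to 95th percentile of all tested probes in bins of intensity and the line is their median. *Eef1e1*, at -0.90, lies far below the band, and the *Eef1a1* and *Eef1b2* probes lie to the right of the last bin's centre, where few probes are as bright.

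The other scaffold genes did not fall with *Eef1e1* to a comparable extent. *Aimp1* encodes the scaffold that joins arginyl- and glutaminyl-tRNA synthetase to the complex and is also known as the secreted cytokine precursor EMAP II. Its signals were 15270 and 13620 in the control channel and 12950 and 12530 in the AIMP3-depleted channel, with no overlap, and the ratio was -0.18 ± 0.0831, or 88.4% of the control (adjusted p = 0.0293, interval -0.304 to -0.053). This call is close to the threshold. It was lost with no filter on dim probes (adjusted p = 0.0799), an offset of 10 in the background correction (0.0538) and the processed signals (0.0601). It was also lost with loess of span 0.1 (0.0673), the deposited table (0.0893) and median centring, where the sign turned (0.10, adjusted p = 0.216). The methods' t-test gave an unadjusted p of 0.203 (adjusted p = 0.339, where no probe of the array passed). *Aimp2* encodes the central scaffold of the complex, which joins its sub-complexes. It read 27700 and 26520 in the control channel and 25590 and 24940 in the AIMP3-depleted channel, with no overlap, and its ratio of -0.10 ± 0.0176 did not pass (adjusted p = 0.114, interval -0.214 to 0.011).

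The order of the members by mean log2 ratio ran from *Eef1e1* at the low end through *Aimp1*, *Aimp2*, *Eef1d*, *Eef1g* (at its brighter probe) and *Eef1b2* to *Eef1a1*. *Eef1e1* was separated from its neighbour *Aimp1* by intervals that do not touch. The intervals of each adjacent pair from *Aimp1* to *Eef1b2* overlapped, as did those of *Eef1b2* and *Eef1a1*, which shared the stretch from 0.209 to 0.227.

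**Figure D4:**
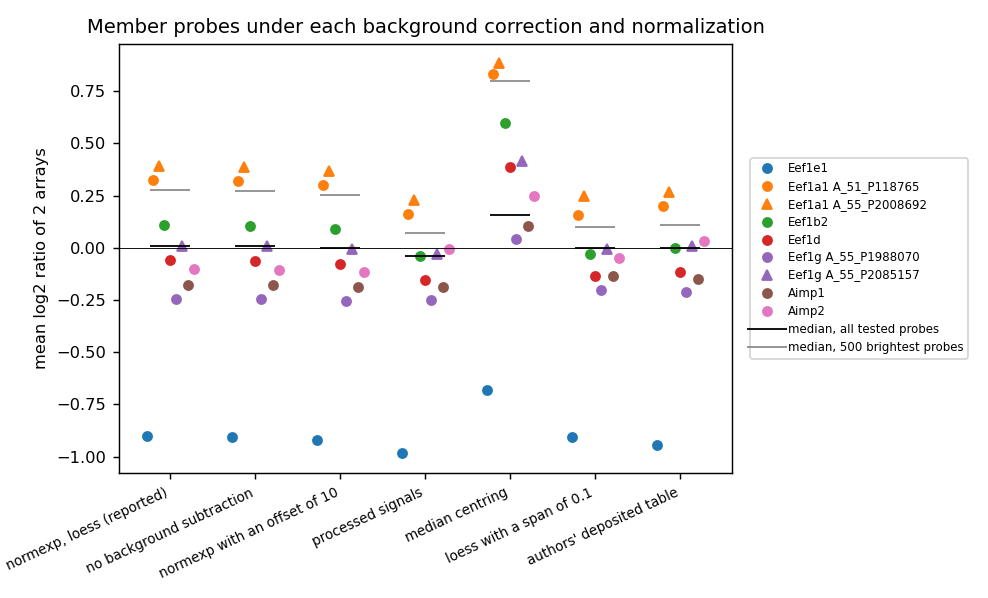
Mean log2 ratio of each member probe under 7 ways of background correction and normalization, with the median of all tested probes (black bar) and of the 500 brightest (grey bar). *Eef1e1* stays the lowest point in every column, between -0.99 and -0.68, while the bright *Eef1a1* probes follow the grey bar.

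The direction of *Eef1e1* was the same under all 7 ways of processing. With median centring of each array in place of loess, the median of all tested probes moved to 0.16 and *Eef1e1* to -0.68. Relative to that median it was -0.83, and over the 7 settings the difference from the median lay between -0.94 and -0.83. Median centring turned the signs of *Eef1d*, *Aimp1*, *Aimp2* and the dimmer *Eef1g* probe. Relative to the median of all tested probes, *Aimp1* (-0.19 to -0.05) and the dimmer *Eef1g* probe (-0.25 to -0.11) stayed negative and both *Eef1a1* probes stayed positive (0.16 to 0.68 and 0.25 to 0.73) in all 7 settings. On that measure *Eef1d* (-0.14 to 0.23), *Aimp2* (-0.11 to 0.09), *Eef1b2* (-0.03 to 0.44) and the brighter *Eef1g* probe (-0.0056 to 0.26) took both signs.

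The start-site sequences of the members are shown because vertebrate mRNAs for elongation factors, *Eef1a1* and *Eef1b2* among them, are known as 5′ terminal oligopyrimidine mRNAs, whose translation follows a run of C and T at the cap. Each line holds 20 bases before and 10 bases from the annotated transcription start (RefSeq, GRCm38.p6, 5′ to 3′ on the gene's strand), with the longest run of C and T in capitals (the first where runs tie). RefSeq windows were found for 6 of the 8 genes, and *Aimp1* has 2.
Eef1e1, chr13:38659019-38659048, minus strand: ctcaatcaaggTCCTagctgtgcaggcccc
Eef1a1, chr9:78481715-78481744, minus strand: cgtgtgctggctccgCCCTCTTCCCgaggg
Eef1b2, chr1:63176811-63176840, plus strand: cgacttggacctgcagTTCCgccggaagta
Eef1a2, chr2:181157006-181157035, minus strand: gTTTTTCTCTCCTggtctgcgttctcgctc
Aimp1, chr3:132683870-132683899, minus strand: agggacagcctcctgggTCCTTTCTCgctg
Aimp1, chr3:132684381-132684410, minus strand: acaccagaataCCTgcctgaatctggggac
Aimp2, chr5:143909830-143909859, minus strand: agcccggccaatgaaagctcggggaCTTCa
A run of 5 or more that covers the start base was present in 2 of the 7 windows, with 10 bases at *Eef1a1* and 9 at the first *Aimp1* start, compared with 10.1% of 32851 start windows of all genes. At *Eef1b2*, named above for this motif, the longest run was 4, ended just before the annotated start base and did not cover it. The *Eef1e1* window had 2 runs of 4, one on each side of the start base, and neither covered it. Only C and T were searched, on the gene's own strand. The runs are letters in these windows, and the arrays measured RNA level and not translation.

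Other genes of translation were described from lists by their brightest probe. Of the 8 synthetases of the multisynthetase complex, 6 passed an adjusted p under 0.05 as lower, 0 as higher and 0 by 1.5-fold, with a median log2 ratio of -0.26. Of all tested probes, 22.8% were lower and 27.7% higher at that adjusted p. *Dars*, aspartyl-tRNA synthetase, was lowest at -0.52 (adjusted p = 0.000612), and *Eprs*, the bifunctional glutamyl-prolyl-tRNA synthetase, was highest at 0.03 (adjusted p = 0.667). *Mars*, whose product binds AIMP3 directly, was -0.33 ± 0.0986 (SD, n = 2, adjusted p = 0.00346). The median turned to 0.09 with median centring, where the median of all tested probes was 0.16. There, 1 synthetase was lower and 2 were higher, beside 9.33% and 49.5% of all tested probes. With the deposited table, 3 were lower and 0 higher, beside 16.8% and 20.8%.

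Of 11 other genes of elongation and release, a list that also holds the valyl-tRNA synthetase gene *Vars* because its product binds elongation factor 1, 5 were lower at an adjusted p under 0.05 and none higher (median -0.14). The kinase of elongation factor 2, *Eef2k*, was lowest at -0.41 (adjusted p = 0.00102). Elongation factor 2 itself, *Eef2*, which moves the ribosome along the mRNA, was highest at 0.10 (adjusted p = 0.156). *Vars* was -0.28 ± 0.0203 (adjusted p = 0.0038). With median centring, 1 of the 11 genes was lower at an adjusted p under 0.05 and 4 were higher. Of all tested probes, 9.33% were lower and 49.5% higher in that setting. With the authors' deposited values, 2 genes were lower and 0 higher, beside 16.8% and 20.8% of all tested probes.

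None of the 4 measured EF1A methyltransferase genes passed, with ratios from -0.10 at *Eef1akmt2* to 0.00 at *Mettl13*, and *Eef1akmt3* had no matched probe. A list of initiation factors held eIF2, which brings initiator methionyl-tRNA to the ribosome, its exchange factor eIF2B, and *Eif5* and *Eif5b*, which are subunits of neither. Of its 9 tested genes, 4 were lower and none higher (median -0.12). *Eif2s3x* was lowest at -0.41 (adjusted p = 0.000918) and *Eif2b1* highest at 0.04 (adjusted p = 0.548), and *Eif5b* was not tested. With median centring, 1 of the 9 initiation genes was lower and 4 were higher, beside 9.33% and 49.5% of all tested probes. With the authors' deposited values, 3 were lower and 0 higher, beside 16.8% and 20.8%. With the loess values, the mitochondrial elongation factors were lower in 4 of 5 cases (median -0.31). They ran from *Guf1* at -0.49 (adjusted p = 0.000456) to *Tufm*, the mitochondrial counterpart of eEF1A, at -0.12 (adjusted p = 0.0651). Probes of a gene could disagree, as at *Gfm2*, with -0.31 and 0.11.

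In all of these lists the count past 1.5-fold was 0 in either direction. The counts of these lists can be set against 22.8% of all tested probes lower and 27.7% higher at an adjusted p under 0.05. By over 1.5-fold with p under 0.05, 0.745% of all tested probes were lower and 4.97% higher. With median centring, the median of all tested probes was itself 0.16. The medians of the methyltransferases, of the initiation factors and of the other elongation factors were then 0.16, 0.13 and 0.07, and that of the mitochondrial list was -0.08. On that scaling 2 methyltransferase genes were higher and 0 lower, and 2 mitochondrial genes were lower and 0 higher. Of all tested probes, 9.33% were then lower and 49.5% higher.

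**Figure D5:**
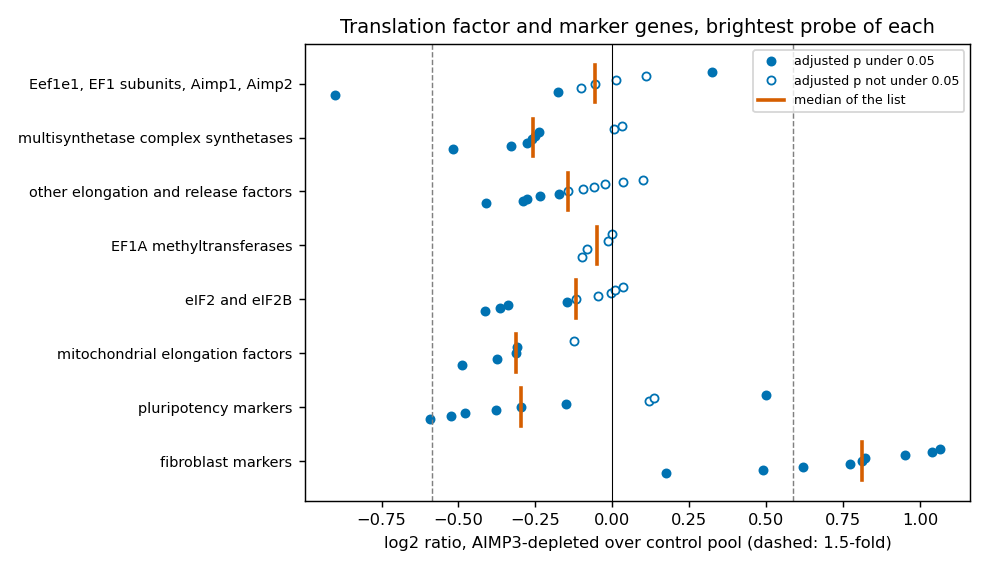
Mean log2 ratio of each gene at its brightest probe, by list, with the list median as a bar; filled points passed an adjusted p under 0.05 by limma, dashed lines mark 1.5-fold, and the eIF2 and eIF2B row also holds *Eif5*. *Eef1e1* is the lowest point, at -0.90, and the translation lists lie between the dashed lines, whereas 7 of the 9 fibroblast markers lie beyond the upper one.

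The markers of the labelled cell type were present, and markers of fibroblasts, the feeder cell type, moved with the treatment. All 9 pluripotency markers, among them *Pou5f1*, *Nanog* and *Sox2*, were well above background in every channel. Of these, 6 were lower at an adjusted p under 0.05 and 1 higher, with 1 past 1.5-fold (*Tdgf1* at -0.59) and the highest at *Dppa5a* (0.50), where 22.8% of all tested probes were lower and 27.7% higher. *Nanog*, one of the 6, was -0.38 at its brightest probe and 0.06 at its other probe. With median centring, 4 markers were lower and 3 higher, the list median was 0.07 beside 0.16 for all tested probes, and *Dppa5a* passed 1.5-fold at 1.03. Of the 10 fibroblast markers, 9 were well above background in every channel and only *Lum* was not tested. All 9 were higher in the AIMP3-depleted cells, 7 of them by over 1.5-fold (4.97% of all tested probes), from *Thy1* at 0.17 to *Col1a1* at 1.06. The 7 were the collagen genes *Col1a1*, *Col1a2*, *Col3a1* and *Col6a1*, the growth factor receptor gene *Pdgfrb*, the matrix gene *Postn* and the transcription factor gene *Twist2*. The summed normalized intensity of these 9 probes was 20950 and 20540 in the control channel and 38090 and 36700 in the AIMP3-depleted channel. None of the 9 was at background in either group, and the part of this shift in the *Eef1e1* and partner values was not tested.

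The measured neighbours of *Eef1e1* in the RefSeq gene order did not pass 1.5-fold. Of the 3 nearest on each side (*Gm31834*, *Gm40922* and *Bloc1s5* on one side, *Gm6200*, *Gm46392* and *Slc35b3* on the other), only the protein-coding *Bloc1s5* and *Slc35b3* had probes, and the other 4 were not measured. *Bloc1s5*, which encodes a subunit of a complex for lysosome-related organelles, was lower at 1 of its 2 probes, with log2 ratios of -0.19 ± 0.00243 (adjusted p = 0.0151) and -0.09 ± 0.0879 (adjusted p = 0.207). *Slc35b3*, a carrier of the sulfate donor PAPS into the Golgi, was higher, at 0.50 ± 0.016 or 1.42-fold (adjusted p = 0.000412).

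The genes whose ratios lay nearest to those of *Eef1e1* on both arrays, by Euclidean distance among 14301 named genes, were *Bst2* (distance 0.0433), *Fgf4* (0.0541), *Map7d3* (0.0561), *Usp28* (0.0586) and *Gstm3* (0.0621). *Fgf4*, a growth factor of mESCs, had log2 ratios of -0.85 and -0.89. *Bst2*, an interferon-induced membrane protein, had -0.87 and -0.93. With 2 arrays, likeness means only a ratio of similar size.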

How the data were processed

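For both arrays the authors deposited Agilent scanner files (the header gives Feature Extraction 11.5.1.1, which is not the release named in the methods), with the intensity of each spot and its local background and the software's processed signals. The authors' deposited value table holds log2 values after GeneSpring. They equalled the log2 ratio of the processed signals, Cy5 over Cy3, plus 0.0404 and 0.0395 (99.8% of probes within 0.01), so the table's scale is log2 of Cy5 over Cy3 and the source of that shift is unknown. The labels put AIMP3-depleted RNA in Cy5, whereas the methods describe ratios of control over test, and the labels were followed; the column medians were 0.0909 and 0.111. All sample columns were used and 0 were left out.

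Median signals were corrected with normexp (offset 50) and normalized by loess (span 0.3) in limma 3.58.1 under R 4.3.3. Control spots and spots with an outlier flag (215 and 227) were left out, spots of a probe were averaged, and a probe was kept if on both arrays either channel was well above background. Kept probes were tested with lmFit and eBayes (1 residual and 5.29 prior degrees of freedom) and Benjamini-Hochberg adjustment over 33022 probes. A normalized intensity is the value of one channel after loess. Arrays give no counts, and precision is set by their number. Accessions were named through RefSeq genes on GRCm38.p6 (31014 spots matched), for names and gene order only, because the array was annotated on another build, and the start windows are RefSeq's on GRCm38.p6. A gene's brightest probe stands for it in lists. The named genes were all members, the extremes and 1.5-fold changes of each list, 3 neighbours on each side and the 5 nearest in ratio, while *Mars*, *Vars*, *Gfm2*, *Pou5f1*, *Nanog* and *Sox2* were named for their roles or as examples. The steps were tested on simulated data. Alternatives covered the background correction, normalization, filter, test, probe choice, fold threshold and each replicate left out. The members and lists were chosen with earlier results of these data known.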

Additional observations from a re-analysis of the deposited data

How the results depend on the processing

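*Eef1e1* kept its direction under every alternative. With either replicate left out it lay between -0.905 and -0.895, and it passed the threshold in all tested settings except the methods' t-test (-0.90, unadjusted p = 0.00335, adjusted p = 0.204), which has 1 degree of freedom and still put it over 1.5-fold with an unadjusted p under 0.05. That test called 0 probes of the whole array after adjustment, and 154 lower and 1047 higher by over 1.5-fold with unadjusted p under 0.05. At a 2-fold threshold, 0 members were lower, and median centring put 3 member probes over 1.5-fold higher (both of *Eef1a1* and that of *Eef1b2*). Reversed signs with median centring were *Eef1d* (0.39), *Eef1g* A_55_P1988070 (0.041), *Aimp1* (0.10) and *Aimp2* (0.25). *Aimp2* also reversed with the deposited table (0.033), *Eef1b2* with processed signals (-0.039) and loess of span 0.1 (-0.027), and *Eef1g* A_55_P2085157 with an offset of 10 (-0.0069), processed signals (-0.031) and span 0.1 (-0.0049). The cause was not tested. Probes lower at an adjusted p under 0.05 numbered 1 with median centring, 1 with the deposited table and 0 with the methods' t-test, against 3 as reported, where 9.33%, 16.8% and 0% of all tested probes were lower, against 22.8% as reported. Probes higher numbered 0 with processed signals, 6 with median centring, 1 with the deposited table, 0 with the methods' t-test and 1 with only the brightest probe of a gene, against 2 as reported, where 18.4%, 49.5%, 20.8%, 0% and 30.6% of all tested probes or genes were higher, against 27.7% as reported. By brightest probe, 2 genes were lower as reported, where 22.8% of all tested probes were. With an offset of 10, processed signals, median centring, span 0.1, the deposited table or no filter, 1 gene was lower. Of all tested probes, 20.9%, 20.9%, 9.33%, 23.2%, 16.8% and 11% were lower in those settings, in that order. With the methods' t-test 0 were lower, of the genes and of all tested probes. By the same measure 1 gene was higher as reported, 0 with processed signals, 5 with median centring and 0 with the methods' t-test, where 27.7%, 18.4%, 49.5% and 0% of all tested probes were. With processed signals, 1 gene each of the synthetase, elongation and mitochondrial lists was lower by over 1.5-fold, and *Tdgf1* was under 1.5-fold with processed signals, median centring or the deposited table.

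Over all tested probes, 246 were lower and 1640 higher by over 1.5-fold (87% higher). The counts were 1180 and 2556 with processed signals (68.4%), 942 and 2801 with the deposited table (74.8%), 85 and 3378 with median centring (97.5%), and 412 lower with an offset of 10. No paired analysis was possible because both arrays share 1 control pool and no control sample carries a replicate number. The precision of each value is limited by 2 arrays.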
